A study of Mus musculus with 10 samples.

Results

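A set of 8 genes of fatty acid oxidation in the peroxisome, Ehhadh, Acaa1a, Acaa1b, Hsd17b4, Ech1, Pex11a, Abcd3 and Cat, were followed in mouse hindlimb muscle. They were taken by gene symbol from a count table of 15883 genes, and all 8 were in the table and passed the filter on low counts. RNA was sequenced from the biceps femoris of male C57BL/6J mice aged 5 weeks, on normal chow and fasted for 16 hours before collection. One group of 5 mice was wild type and the other group of 5 mice carried a Zfp407 transgene, which encodes a zinc finger protein. The title of the series ties this overexpression to glucose homeostasis. Neither the promoter of the transgene nor the founder line nor the kinship of the mice is given in the sources used here. Column names give the group without the animal, so a library is known here by its group and column number.

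Peroxisomes shorten fatty acids that mitochondria handle poorly, such as very long-chain, branched and dicarboxylic acids and bile acid precursors. Acyl-CoA enters through ABC transporters and is then oxidised, hydrated, oxidised again and cleaved by a thiolase, and the first oxidation gives hydrogen peroxide, which catalase removes. The organelle is abundant in liver and kidney and sparser in skeletal muscle, and in rodents the nuclear receptor PPAR alpha, which is active in fasting, induces many of its oxidation genes and its proliferation in liver.

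Ehhadh and Acaa1b, which encode the bifunctional enzyme and a thiolase of the classical spiral, were higher in transgenic mice, by 3.58-fold and 6.52-fold. The other 6 genes did not pass the test. Pex11a, a factor of peroxisome proliferation, had the lowest fold change, a log2 fold change of -0.64 ± 0.21 (SE; adjusted p = 0.110 by edgeR). Acaa1a, Hsd17b4, Ech1, Abcd3 and Cat had log2 fold changes from 0.02 to 0.17. Of the 8 genes, 2 were called higher and 0 lower by edgeR's quasi-likelihood test at an adjusted p of 0.05, where 4.28% of the 13338 genes tested were called higher and 1.05% lower. Acaa1b passed the filter on low counts through the transgenic group alone, so the count of 2 includes a gene that had to differ to be tested. At an unadjusted p under 0.05 there were 3 of 8, the third being Pex11a, where 2412 of all 13338 genes tested were under it. DESeq2, which gave Ehhadh no p, called 1 higher (Acaa1b) and 0 lower, where it called 5.66% of genes higher and 2.08% lower. The authors' deposited adjusted p (DESeq2) was 0.00298 for Ehhadh and 0.0108 for Acaa1b. By that value 5.52% of genes were called higher and 1.78% lower. The median log2 fold change of the 8 genes was 0.12, and that of all genes tested was 0.003.

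Libraries held 13530367 to 17814900 counts in wild type and 15162400 to 19047834 in transgenic mice. The level of a gene is expressed as CPM, its count per 1000000 counts of the TMM-adjusted library size. Zfp407 had 21.0 to 25.7 CPM in wild type and 317 to 616 CPM in transgenic mice (log2 fold change 4.41 ± 0.19, SE; adjusted p = 8.15e-08 by edgeR), so no library went against its label (exact permutation test, two-sided, p = 0.00794, which is the least possible here). The 12 markers of fast fibres and of muscle in general summed to 189913 to 259707 CPM in wild type and 160606 to 194899 CPM in transgenic mice, and none of them was called. Of 24 markers of hepatocytes, 21 were called higher and 0 lower (11 called higher without wild-type library 3). The other 3, Vtn, Cyp2e1 and Hp, had log2 fold changes of 1.14, 0.56 and 0.20 and were not called. Summed, the 24 markers separated the groups. Their sums were 212 to 383 CPM in wild type and 658, 1097, 603, 1671 and 6761 CPM in transgenic libraries 1 to 5. Transgenic library 5 thus stood apart from the rest, and the fold changes of the peroxisomal genes and PPAR alpha targets named below that were called and highest there are given with and without it. The libraries come from separate mice by the series' description, and p-values measure the spread between these 10 libraries.

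**Figure D1:**
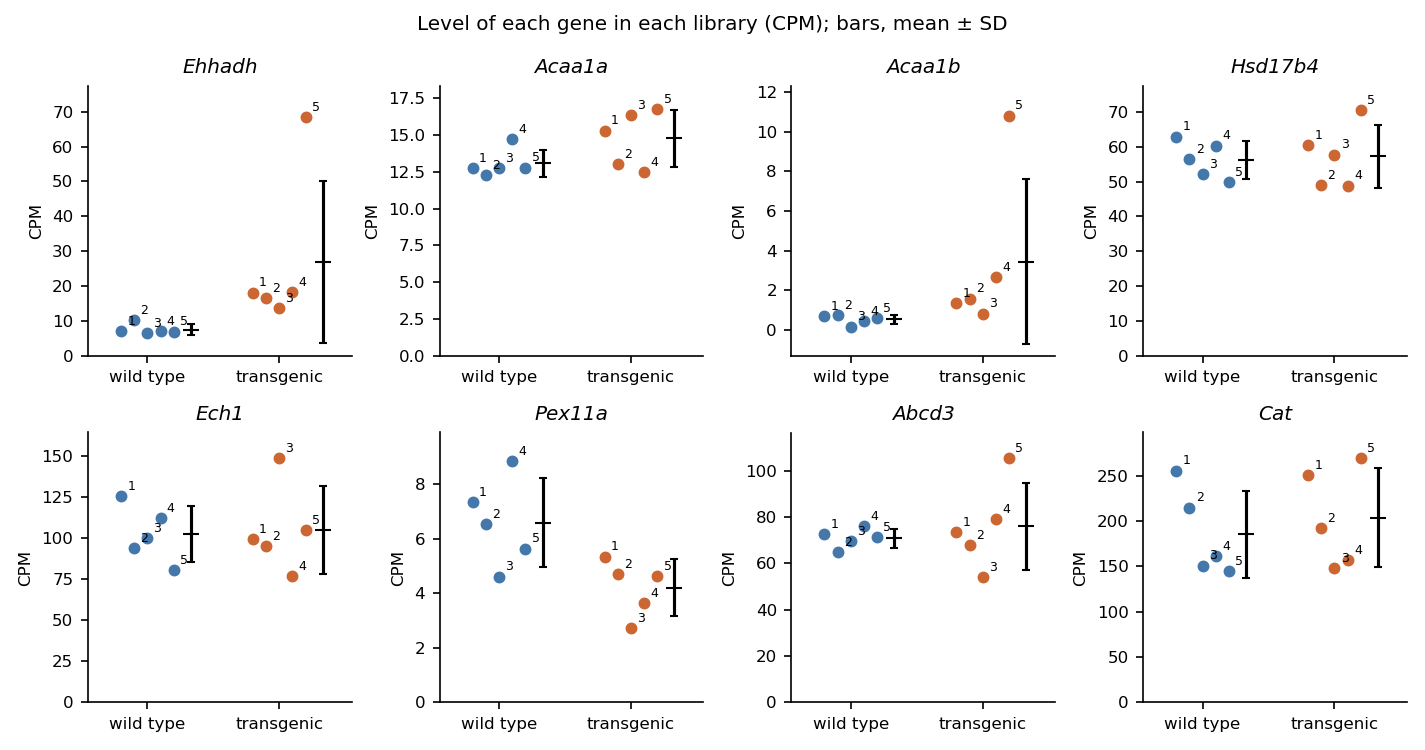
Level of each of the 8 genes (y axis, CPM) in the 5 wild-type libraries (blue) and the 5 transgenic libraries (orange), numbered by column, with black bars for the mean ± SD of each group. Only Ehhadh and Acaa1b have every transgenic point above every wild-type point, and transgenic library 5 is the highest point for 6 of the 8 genes.

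Ehhadh encodes the peroxisomal L-bifunctional enzyme, which hydrates the enoyl-CoA and then oxidises the hydroxyacyl-CoA. It lies on the minus strand of chromosome 16 at chr16:21761287-21787807 (GRCm38). Its level was 7.01, 10.3, 6.44, 7.03 and 6.93 CPM in wild-type libraries 1 to 5, and 18.1, 16.6, 13.7, 18.3 and 68.4 CPM in transgenic libraries 1 to 5. The lowest transgenic library lay above the highest wild-type library, and library 5 lay far above the other 4 transgenic libraries, which were close together. Means were 7.55 ± 1.58 CPM in wild type and 27.0 ± 23.2 CPM in transgenic mice (n = 5 each, SD), or 16.7 CPM without transgenic library 5. Ehhadh rose by a log2 fold change of 1.84 ± 0.41 (SE; 95% interval 0.96 to 2.72; adjusted p = 0.0179 by edgeR), and by 1.15 ± 0.16 without transgenic library 5 (adjusted p = 0.00120 by edgeR). Leaving out wild-type library 1, 3, 4 or 5 ended the call (adjusted p between 0.0516 and 0.0595 by edgeR). DESeq2 gave Ehhadh no p because of its filter on outlying counts, the single gene of the table to which this applied, and without that filter the log2 fold change was 1.83 ± 0.47 (DESeq2 adjusted p = 0.00304).

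Each transgenic library was above each wild-type library in both Ehhadh and the summed hepatocyte markers. Within wild type the 2 differed, with Ehhadh highest in library 2 at 10.3 CPM and the summed markers in library 1 at 383 CPM. With the mean log2 CPM of these markers as a covariate the log2 fold change of Ehhadh was 0.11 ± 0.31 (SE; adjusted p = 0.897 by edgeR). But the covariate itself did not overlap between the groups, so the 2 terms cannot be told apart in this design. For Ehhadh, the order of the transgenic libraries from low to high was 3, 2, 1, 4 and 5. For the summed hepatocyte markers it was 3, 1, 2, 4 and 5, so only libraries 1 and 2 changed places. Transgenic libraries 1 to 4 ranged from 13.7 to 18.3 CPM for Ehhadh, while Alb, the serum albumin gene, went from 197 CPM in library 1 and 249 CPM in library 3 to 419 CPM in library 2 and 715 CPM in library 4. Without transgenic libraries 4 and 5, the pair with the most hepatocyte transcripts, Ehhadh was higher by a log2 fold change of 1.10 ± 0.17 (SE; adjusted p = 0.00501 by edgeR). In bulk muscle, more cells of a type that expresses a gene and more RNA of that gene per cell cannot be told apart.

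Because Ehhadh and Acaa1b rose together, the 250 bases before the start site of each are shown, as RefSeq gives them on GRCm38.p6, read on the minus strand, with matches to ATTGG, the inverted CCAAT box, in capitals. The Ehhadh stretch is chr16:21787835-21788084 and the Acaa1b stretch is chr9:119157094-119157343.
Ehhadh: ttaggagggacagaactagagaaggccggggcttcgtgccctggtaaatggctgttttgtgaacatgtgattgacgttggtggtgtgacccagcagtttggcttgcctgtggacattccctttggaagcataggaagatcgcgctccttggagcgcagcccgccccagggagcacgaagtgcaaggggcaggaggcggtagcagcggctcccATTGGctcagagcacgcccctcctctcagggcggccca
Acaa1b: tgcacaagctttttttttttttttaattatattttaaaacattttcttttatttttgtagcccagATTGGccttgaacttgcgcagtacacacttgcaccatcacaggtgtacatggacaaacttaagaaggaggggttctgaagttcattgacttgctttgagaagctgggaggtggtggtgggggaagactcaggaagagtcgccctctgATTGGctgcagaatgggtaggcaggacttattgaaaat
Both carry ATTGG 38 bases before the start site, and Acaa1b carries a further match 185 bases before it. Promoter windows were found for 7 of the 8 genes. ATTGG was searched on both strands and was present in 33.8% of 32851 RefSeq promoter windows, and Cat held 4 matches and Acaa1a 3, although neither was called. The direct repeat of AGGTCA with 1 base between the copies, the textbook element of PPAR alpha and its partner RXR, was in none of the 7 windows and in 0.0335% of all windows. The single AGGTCA, which lies inside each match to the longer motif, was in 14.0% of all windows and, among the 7, in that of Cat alone.

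Acaa1a and Acaa1b encode peroxisomal 3-ketoacyl-CoA thiolases, which cleave the chain in the last step of each round. Both genes lie on chromosome 9 (GRCm38), Acaa1a on the plus strand at chr9:119339676-119350299 and Acaa1b on the minus strand at chr9:119148023-119157093. Acaa1a had 12.8, 12.3, 12.8, 14.7 and 12.8 CPM in wild-type libraries 1 to 5 and 15.3, 13.0, 16.3, 12.5 and 16.7 CPM in transgenic libraries 1 to 5. The groups overlapped, and transgenic library 5 was the highest by a small margin over library 3. With means of 13.1 ± 0.944 CPM and 14.8 ± 1.93 CPM (n = 5 each, SD), Acaa1a differed by a log2 fold change of 0.17 ± 0.11 (SE; 95% interval -0.07 to 0.42; adjusted p = 0.460 by edgeR).

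Acaa1b was the least abundant of the 8 genes. It had 9, 9, 3, 7 and 8 counts in wild-type libraries 1 to 5, or 0.709, 0.762, 0.166, 0.455 and 0.578 CPM, and 24, 34, 13, 56 and 168 counts in transgenic libraries 1 to 5, or 1.33, 1.58, 0.823, 2.65 and 10.8 CPM. The groups did not overlap, though wild-type library 2 and transgenic library 3 were close, and transgenic library 5 again stood above the rest. Acaa1b passed the filter on low counts through the transgenic group, with 1 wild-type library and 5 transgenic libraries at or above its threshold of 0.643 CPM, while the other 7 genes were above it in all 10 libraries. It went from 0.534 ± 0.238 CPM to 3.44 ± 4.17 CPM (n = 5 each, SD), a rise by a log2 fold change of 2.71 ± 0.71 (SE; 95% interval 1.18 to 4.23; adjusted p = 0.0432 by edgeR). Without transgenic library 5 the transgenic mean was 1.60 CPM and the log2 fold change 1.64 ± 0.41 (SE; adjusted p = 0.0392 by edgeR).

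Leaving out a single library ended the call for Acaa1b when that library was any in the wild-type group or transgenic library 4 (adjusted p between 0.0654 and 0.108 by edgeR), as did leaving out transgenic libraries 4 and 5 together (log2 fold change 1.28 ± 0.41, SE; adjusted p = 0.144 by edgeR). With the hepatocyte covariate its log2 fold change was -0.27 ± 0.52 (SE; adjusted p = 0.847 by edgeR). From low to high, the transgenic libraries stood in the same order, 3, 1, 2, 4 and 5, for Acaa1b and for the summed hepatocyte markers, and library 3, the lowest, lay near the wild-type range of Acaa1b. What part those transcripts had in the rise was not tested.

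The 2 thiolase genes are near-identical copies, and how reads that fit both were counted is not stated. Their coding sequences, of 1275 bases each in GENCODE M21, matched at 1231 positions (96.5%), and the longest identical run was 327 bases. Of all stretches of 50 bases in the transcripts, 34.0% of those of Acaa1a also occurred in Acaa1b and 35.5% of those of Acaa1b in Acaa1a. The stretch with the most differences, coding bases 259 to 318, is shown because reads from it can be told apart, with the 11 differing positions in capitals.
Acaa1a: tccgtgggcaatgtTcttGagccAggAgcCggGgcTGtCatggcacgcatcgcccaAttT
Acaa1b: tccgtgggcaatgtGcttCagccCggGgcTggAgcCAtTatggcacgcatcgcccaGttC
Summed as 1 gene, the thiolases had 12.9 to 15.2 CPM in wild type and 14.6 to 17.2 CPM in transgenic libraries 1 to 4, with 27.5 CPM in transgenic library 5. The sum had a log2 fold change of 0.42 ± 0.16 (SE; adjusted p = 0.187 by edgeR) and did not pass. Without a stated strand setting, reads of Acaa1a also cannot be told from those of Slc22a14 and Myd88 where they overlap it on the opposite strand, nor reads of Acaa1b from those of Dlec1.

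Hsd17b4 encodes the D-bifunctional protein, which carries out the same pair of steps as Ehhadh with the opposite stereochemistry and serves branched and very long-chain substrates. It lies on chromosome 18 at chr18:50128201-50196269 (plus strand, GRCm38), overlapped on the same strand by the pseudogene Cd63-ps. It had 62.9, 56.4, 52.1, 60.3 and 49.9 CPM in wild-type libraries 1 to 5 and 60.5, 49.0, 57.7, 48.8 and 70.6 CPM in transgenic libraries 1 to 5. The groups overlapped almost fully, with transgenic library 5 the highest and transgenic library 4 the lowest. The means were 56.3 ± 5.45 CPM and 57.3 ± 9.04 CPM (n = 5 each, SD). Its log2 fold change was 0.02 ± 0.12 (SE; adjusted p = 0.944 by edgeR), and its 95% interval, from -0.24 to 0.29, lies below that of Ehhadh.

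Ech1 encodes an isomerase that prepares unsaturated chains for oxidation in peroxisomes and mitochondria, and lies at chr7:28825217-28832247 (plus strand, GRCm38). Its level was 125, 93.9, 99.95, 112 and 80.5 CPM in wild-type libraries 1 to 5 and 99.3, 94.9, 148, 76.6 and 105 CPM in transgenic libraries 1 to 5. Here the highest library was transgenic library 3, and the other 4 transgenic libraries lay within or below the wild-type range. The difference was 0.03 ± 0.17 on the log2 scale (SE; 95% interval -0.34 to 0.40; adjusted p = 0.947 by edgeR).

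Abcd3 encodes PMP70, an ABC transporter of the peroxisomal membrane that takes in long-chain and branched acyl-CoA, and lies at chr3:121758774-121815302 (minus strand, GRCm38). It had 72.8, 65.0, 69.5, 76.0 and 71.5 CPM in wild-type libraries 1 to 5 and 73.6, 67.8, 54.2, 79.1 and 105 CPM in transgenic libraries 1 to 5. The wild-type libraries were close together, transgenic library 3 lay below them and transgenic libraries 4 and 5 lay above. Across the groups the log2 fold change was 0.10 ± 0.15 (SE; 95% interval -0.22 to 0.42; adjusted p = 0.801 by edgeR), and it was -0.05 without transgenic library 5. The genes Gm43609 and 4633401B06Rik overlap Abcd3 on the same strand.

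Pex11a encodes a membrane protein that elongates peroxisomes before they divide, and lies at chr7:79735957-79743131 (minus strand, GRCm38). It had 7.32, 6.52, 4.61, 8.85 and 5.63 CPM in wild-type libraries 1 to 5 and 5.34, 4.70, 2.72, 3.64 and 4.63 CPM in transgenic libraries 1 to 5. Transgenic libraries 1, 2 and 5 overlapped wild-type library 3, and the other 4 wild-type libraries lay above every transgenic library. Mean levels were 6.59 ± 1.62 CPM and 4.21 ± 1.03 CPM (n = 5 each, SD). The log2 fold change of -0.64 ± 0.21 (SE; 95% interval -1.10 to -0.18) did not pass (adjusted p = 0.110, edgeR). The authors' deposited table gives Pex11a an adjusted p of 0.0542, and its log2 fold change ran from -0.85 to -0.53 over every alternative fit, including that with the hepatocyte covariate, with an adjusted p from 0.0534 to 0.434. It was the only one of the 8 genes whose highest library was a wild-type library. The antisense gene Gm44706 overlaps it.

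Cat encodes catalase and lies at chr2:103453849-103485160 (minus strand, GRCm38). It had 256, 215, 151, 161 and 145 CPM in wild-type libraries 1 to 5 and 251, 193, 148, 157 and 269 CPM in transgenic libraries 1 to 5. In each group libraries 1 and 2 lay above libraries 3 and 4, and transgenic library 5 was the highest. The difference was 0.13 ± 0.20 on the log2 scale (SE; 95% interval -0.31 to 0.58; adjusted p = 0.802 by edgeR). Adipocyte markers split the libraries in a similar way. Of 10 such markers, 8 were tested and none was called, and these 8 summed to 1373 and 790 CPM in wild-type libraries 1 and 2 against 245 to 473 CPM in the other wild-type libraries. In the transgenic group they summed to 1161 and 758 CPM in libraries 1 and 2, 221 and 336 CPM in libraries 3 and 4 and 567 CPM in library 5. Slow fibre markers, 8 in all and none called, summed to 1461 CPM in wild-type library 1, 790 CPM in transgenic library 5 and 113 to 363 CPM in the other 8 libraries. The part of fat or of slow fibres in the spread of Cat was not tested.

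Per length of exon, the 8 genes spanned a wide range, and the order was read as CPM per kilobase of exon. The length was that of all annotated exons of a gene merged, 4414 bases for Acaa1a, 2981 for Ehhadh and 1962 for Acaa1b. Single transcripts can be shorter, so the order between genes holds for these lengths only. In wild type Cat was highest at 71.0 ± 18.4, followed by Ech1 at 44.8 ± 7.52, Hsd17b4 at 16.5 ± 1.60 and Abcd3 at 10.8 ± 0.621 CPM per kilobase (SD, n = 5). Below them came Acaa1a at 2.96 ± 0.214, Ehhadh at 2.53 ± 0.529, Pex11a at 2.07 ± 0.509 and Acaa1b at 0.272 ± 0.121 CPM per kilobase (SD, n = 5). The libraries of Ehhadh overlapped those of Acaa1a and of Pex11a, so its place between them is within their spread. Each of the other neighbours in the order was separated in every wild-type library. In the transgenic group Ehhadh stood at 9.06 ± 7.79 CPM per kilobase (SD, n = 5), or 5.59 ± 0.719 without library 5 (SD, n = 4). Acaa1a stood at 3.34 ± 0.438 there. On these lengths Ehhadh was above Acaa1a in 1 of 5 wild-type libraries and 5 of 5 transgenic libraries. A shorter length for Acaa1a would raise its level, and the order of the 2 genes was not tested with other lengths. The order of Acaa1b and Pex11a in transgenic mice, at 1.75 ± 2.13 and 1.32 ± 0.323 CPM per kilobase (SD, n = 5), rests on transgenic library 5, since Acaa1b was the lower in libraries 1, 2 and 3. Ehhadh made up 1.70% ± 0.356 of the summed length-scaled level of the 8 genes in wild type and 5.03% ± 3.11 in transgenic mice (SD, n = 5), or 3.67% ± 0.738 without library 5 (SD, n = 4).

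**Figure D2:**
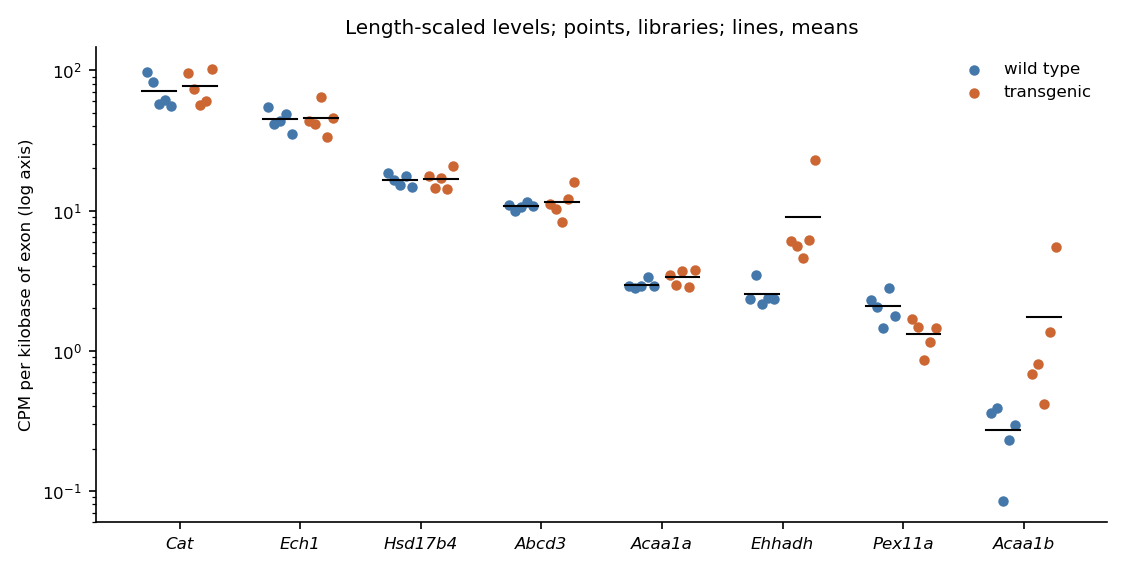
Length-scaled level of each gene (y axis, CPM per kilobase of exon, log axis), 1 point per library and a line at each group mean, with wild type in blue and transgenic in orange. Cat, Ech1, Hsd17b4 and Abcd3 lie above the other 4 genes in wild type, and the transgenic points of Ehhadh and Acaa1b lie above their wild-type points.

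Transgenic library 5 was the highest of the 10 libraries for 6 of the 8 genes (75.0%), where it was the highest for 9.72% of all genes tested. It was also the highest for 13 of 27 other genes of peroxisomal oxidation (48.1%). The groups did not overlap for 2 of the 8 genes, Ehhadh and Acaa1b, both higher in transgenic mice, where 5.14% of all genes tested did so in that direction. Leaving out transgenic library 5 lowered the log2 fold change of each of the 8 genes. For the 6 genes highest in that library this largely follows from that rank. Ech1 went only from 0.0330 to 0.0325, and Pex11a from -0.64 to -0.68. The calls for Ehhadh and Acaa1b were still made.

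**Figure D3:**
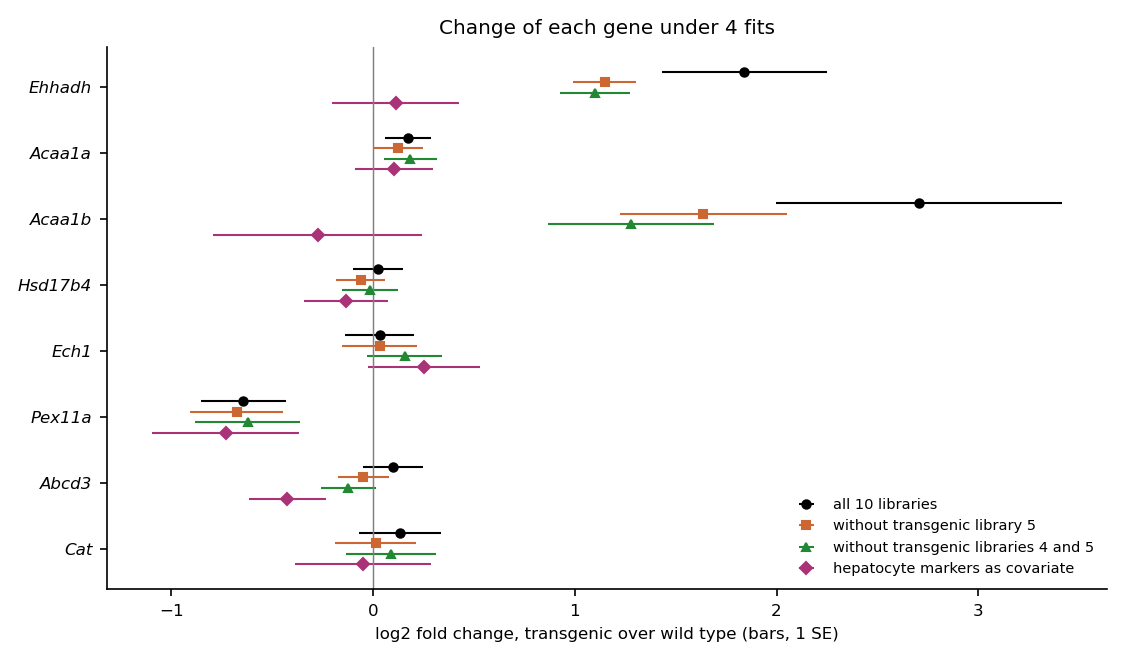
The log2 fold change of each gene, transgenic over wild type (x axis; bars, 1 SE), from all 10 libraries and from 3 alternative fits. Ehhadh goes from 1.84 to 1.15 and Acaa1b from 2.71 to 1.64 without transgenic library 5, both lie near 0 beside the hepatocyte covariate, and Pex11a lies below 0 in each of the 4 fits.

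Other genes of peroxisomal oxidation rose in part. Of 31 such enzymes and carriers outside the 8 genes, 27 were tested, 5 were called higher and 0 lower, and their median log2 fold change was 0.14. Of all genes tested, 4.28% were called higher and 1.05% lower. Slc27a2, a very long-chain acyl-CoA synthetase, had 1.18, 2.03, 1.28, 2.54 and 4.33 CPM in wild-type libraries 1 to 5 and 7.45, 14.5, 7.15, 24.2 and 102 CPM in transgenic libraries 1 to 5. The groups did not overlap, and the transgenic libraries stood in the same order as for Alb except that libraries 1 and 3 changed places. The rise of Slc27a2 was 3.77 ± 0.76 on the log2 scale (SE; adjusted p = 0.0113 by edgeR), and that of Acot12, a hydrolase of acetyl-CoA, was 3.77 ± 0.76 (SE; adjusted p = 0.0115 by edgeR). Acox2, the oxidase of branched acyl-CoA and bile acid intermediates, rose by 2.89 ± 0.59 (SE; adjusted p = 0.0127 by edgeR). In these 3 genes, as in Ehhadh and Acaa1b, transgenic library 5 was far above the others. Their log2 fold changes were 2.56, 2.81 and 2.11 without it, and 0.23, 0.83 and 0.58 beside the hepatocyte covariate. Acot12 reached the threshold of the low-count filter in 0 wild-type libraries and Acox2 in 1, and both reached it in all 5 transgenic libraries, so each was tested through the group in which it is high.

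Nudt19, a hydrolase of acyl-CoA and CoA, showed another pattern. It had 19.0, 15.2, 18.5, 21.5 and 16.7 CPM in wild-type libraries 1 to 5 and 25.1, 24.6, 35.8, 25.5 and 29.1 CPM in transgenic libraries 1 to 5, a rise by a log2 fold change of 0.62 ± 0.13 (SE; adjusted p = 0.0149 by edgeR). Here the groups did not overlap, transgenic library 3 was the highest, and the log2 fold change beside the hepatocyte covariate was 0.65 ± 0.23 (SE; adjusted p = 0.256 by edgeR), of the same size with a larger error. Decr2, the dienoyl-CoA reductase, rose by 0.91 ± 0.22 (SE; adjusted p = 0.0283 by edgeR), with 12.5 CPM in transgenic library 5 and 5.89 to 6.57 CPM in the other transgenic libraries against 3.23 to 4.42 CPM in wild type. Without transgenic library 5 its log2 fold change was 0.64. Beside the covariate Decr2 stood at 0.08 ± 0.22 (SE; adjusted p = 0.894 by edgeR). The 3 genes of the list with the highest length-scaled levels were not called. Phyh, which hydroxylates phytanoyl-CoA, had a log2 fold change of 0.17 ± 0.18, Crat, which moves acyl groups to carnitine, one of 0.03 ± 0.15, and Scp2, a thiolase of branched chains, one of 0.39 ± 0.21 (SE). The 5 calls became 3 without wild-type library 1, 2 or 3 or without transgenic libraries 4 and 5, and 0 beside the covariate. Leaving out wild-type library 1, 2 or 3 ended the call of Nudt19 (adjusted p between 0.0529 and 0.0646 by edgeR) and leaving out a single library ended that of Decr2, for wild-type libraries 1 to 5 (adjusted p between 0.0612 and 0.0862 by edgeR).

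The proteins that build peroxisomes did not pass. Of 20 other peroxins and membrane proteins tested, 0 were called, by edgeR or by DESeq2. An unadjusted p under 0.05 was found for 2 of them, and for 2412 of all 13338 genes tested. Pex7, the receptor that imports thiolase and other proteins with a signal near the N terminus, was at 15.5 ± 2.03 CPM in wild-type mice against 12.9 ± 1.49 CPM in transgenic mice (n = 5 each, SD; adjusted p = 0.258 by edgeR). Fis1, Pex19 and Dnm1l, the most abundant of the list per length and known for fission and membrane protein import, had log2 fold changes from -0.03 to 0.18. The list ran from -0.27 to 0.26 on the log2 scale, with a median of 0.09.

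Among 15 other peroxisomal enzymes tested, 1 was called higher and 1 lower, where 4.28% of all genes tested were called higher and 1.05% lower. Uox, the urate oxidase of rodent liver, rose by a log2 fold change of 3.47 ± 0.70 (SE; adjusted p = 0.0112 by edgeR), with 35.0 CPM in transgenic library 5 and 2.84 to 10.5 CPM in the other transgenic libraries against 0.721 to 1.56 CPM in wild type. Its log2 fold change was 2.45 without transgenic library 5 and 0.26 ± 0.27 beside the hepatocyte covariate (SE; adjusted p = 0.696 by edgeR). Ddo, which oxidises D-aspartate, fell. It had 17.6, 18.6, 19.1, 21.9 and 21.9 CPM in wild-type libraries 1 to 5 and 12.6, 15.0, 11.0, 14.0 and 11.7 CPM in transgenic libraries 1 to 5. No transgenic library reached the wild-type range, and the log2 fold change was -0.62 ± 0.11 (SE; adjusted p = 0.00768 by edgeR). It was -0.65 ± 0.21 beside the hepatocyte covariate (SE; adjusted p = 0.214 by edgeR). Gnpat, the first enzyme of plasmalogen synthesis, was at 85.8 ± 8.85 CPM in wild-type mice against 65.3 ± 10.8 CPM in transgenic mice (n = 5 each, SD) and did not pass (adjusted p = 0.0947 by edgeR, and 0.00820 without transgenic library 3). DESeq2, which also tested genes below the filter on low counts, called 4 genes of the list higher and 2 lower. Over all genes it called 5.66% higher and 2.08% lower. Prdx5 and Ephx2, the other abundant members, had log2 fold changes of -0.09 ± 0.15 and 0.42 ± 0.30 (SE).

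Of 31 other PPAR alpha targets and partners tested, 7 were called higher and 0 lower, with a median log2 fold change of 0.08. Among all genes tested, 4.28% were called higher and 1.05% lower. Cyp4a10 and Cyp4a14, fatty acid omega-hydroxylases, Fabp1, the liver fatty acid binding protein, and Cyp8b1, an enzyme of bile acid synthesis, rose by 3.81 ± 0.76, 3.70 ± 0.76, 3.16 ± 0.64 and 3.32 ± 0.76 on the log2 scale (SE; adjusted p between 0.0108 and 0.0202 by edgeR). Cyp4a10 and Cyp4a14 have near-identical relatives, so their counts may hold reads of those. Each of these 4 genes was highest in transgenic library 5, and without it they stood at 2.57, 2.33, 2.19 and 2.06. Beside the hepatocyte covariate they stood at 0.22, -0.066, 0.20 and 0.015. Cyp8b1 reached the low-count threshold in 0 wild-type and 5 transgenic libraries. Plin2, a coat protein of lipid droplets, rose by 0.79 ± 0.17 (SE; adjusted p = 0.0137 by edgeR) and stood at 0.87 ± 0.28 beside the covariate (SE; adjusted p = 0.212 by edgeR). The remaining 24 of the 31 genes, which include mitochondrial oxidation genes such as Acadm and Hadha, were not called. The calls fell to 4 without wild-type library 2 or 4 and to 3 without wild-type library 3. DESeq2 called 11 higher, where it called 5.66% of all genes higher, and 0 were called beside the covariate.

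**Figure D4:**
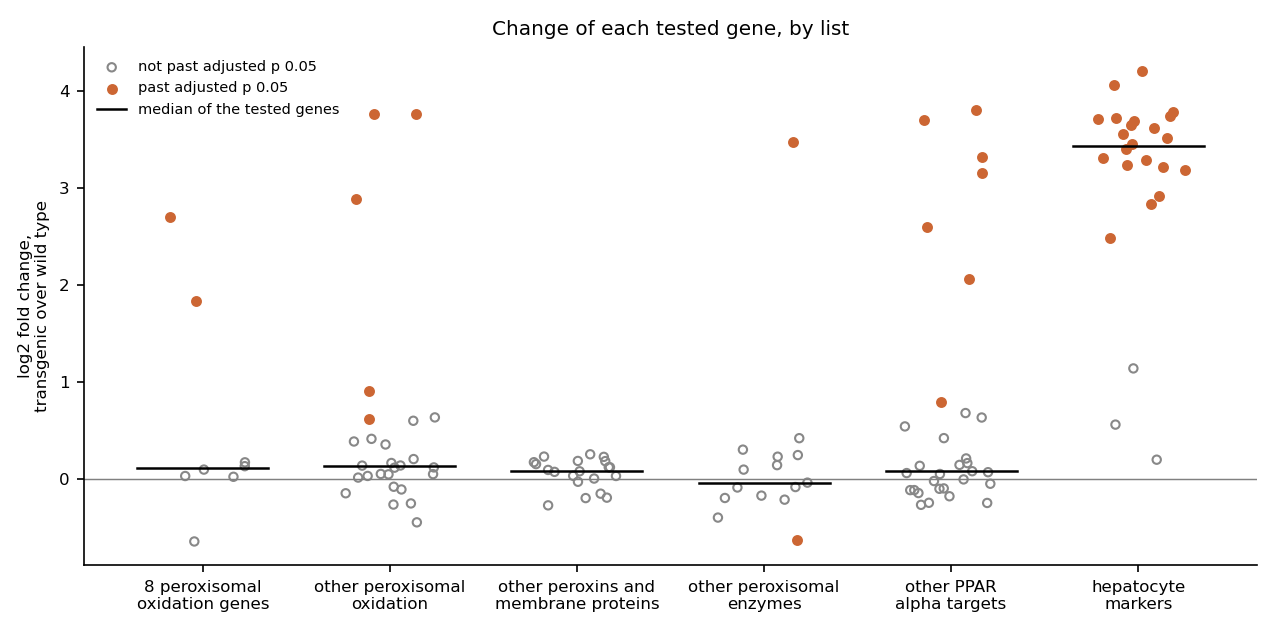
The log2 fold change (y axis) of every tested gene of the 8 peroxisomal oxidation genes, 4 lists of related genes and the hepatocyte markers, with genes past an adjusted p of 0.05 filled and a line at each median. The medians of the 8 genes and the 4 related lists lie between -0.04 and 0.14, and that of the hepatocyte markers lies at 3.43.

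The genes whose profiles were most like that of Ehhadh were found by the root mean square difference between log2 CPM values centred on their own mean over the 10 libraries. They were C6, a complement component, at 0.165, Dpyd, an enzyme of pyrimidine breakdown, at 0.274, H2-Q10 at 0.274, Fmo5 at 0.304 and Cyp2f2 at 0.317. For Acaa1b they were H2-Q10 at 0.307, Apoc2 at 0.308, Fgl1 at 0.352, Rbp4 at 0.378 and Cth at 0.393. H2-Q10 was in both sets, and none of the 9 genes was a member of the lists of peroxisomal genes. In C6 the wild-type libraries ran from 0.455 to 0.678 CPM and transgenic libraries 1 to 4 from 1.27 to 1.58 CPM, with 6.31 CPM in transgenic library 5. C6, Apoc2 and Fgl1 reached the threshold of the low-count filter in 0 wild-type and 5 transgenic libraries. Each thus entered this search through the group in which it is high. These likenesses rest on 10 libraries that share depth, group and hepatocyte content, and they are a description.

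The raised genes differed in how closely they followed Alb. The excess of a gene over its wild-type mean was divided by the excess of Alb over its own wild-type mean in the same transgenic library. For Cps1, an enzyme of the urea cycle in liver, this gave 14.6 to 15.7 CPM per 100 CPM of Alb over the 5 transgenic libraries, a range of 1.07-fold. Uox spanned 1.28-fold, Cyp4a10 1.30-fold, Cyp4a14 1.33-fold, Apob 1.36-fold, Slc27a2 1.48-fold, Acot12 1.83-fold and Acox2 2.84-fold. Ehhadh gave 8.11, 2.56, 3.36, 1.66 and 2.05 CPM per 100 CPM of Alb in transgenic libraries 1 to 5, a range of 4.89-fold. Acaa1b gave 0.614, 0.298, 0.159, 0.326 and 0.346, a range of 3.87-fold, from counts as low as 13. Fabp1 and Cyp8b1 spanned 1.49-fold and 1.39-fold, while Decr2 spanned 6.18-fold, Plin2 21.1-fold and Nudt19 26.3-fold, and Ehhadh lay between. In Ehhadh the highest values came from libraries 1 and 3, which held the least Alb. No error was estimated for these ratios, and the reason for the spread was not tested.

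**Figure D5:**
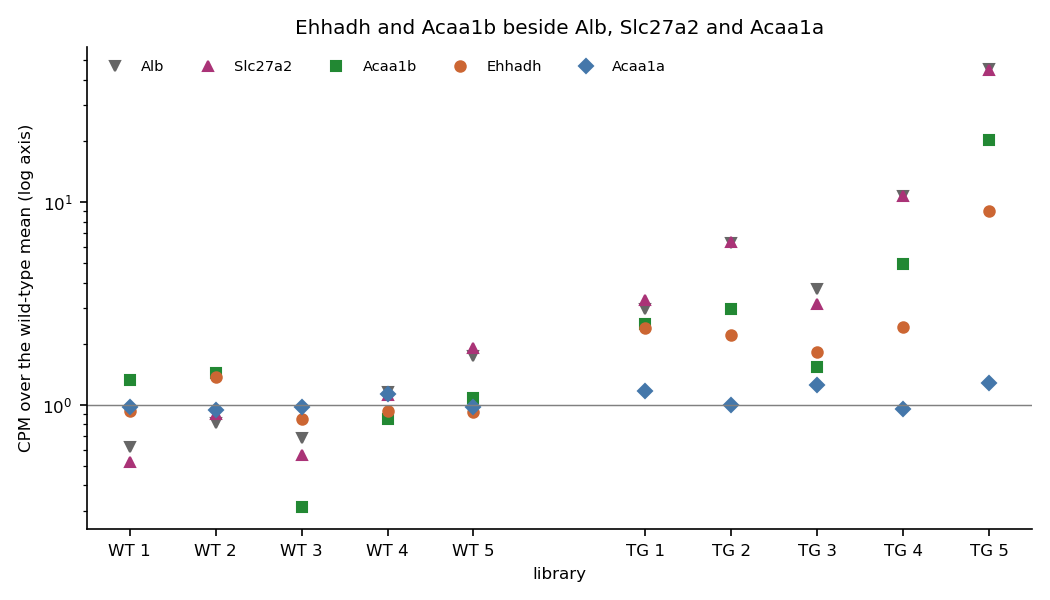
Level of Alb, Slc27a2, Acaa1b, Ehhadh and Acaa1a in each library relative to the wild-type mean of the same gene (y axis, log axis), with a grey line at the wild-type mean. Alb and Slc27a2 lie close together in each transgenic library, and Acaa1a stays near its wild-type mean in all 10 libraries. Ehhadh varies less than Alb over transgenic libraries 1 to 4 (13.7 to 18.3 CPM before division by the wild-type mean).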

How the data were processed

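RNA from muscle of 10 mice was sequenced, and the authors deposited whole-number counts per gene, not normalized. The submitters' processing notes name TopHat2 2.1, Bowtie2 2.2.6, SAMtools 1.2, DESeq2 1.10 and HTSeq 0.6.1 as tools and GRCm38.p4 as the build. How reads were counted, whether strand was used and which gene models served is not stated there. The authors' deposited table also holds a mean signal, a log2 fold change with its standard error, a Wald score, and p-values with adjusted p-values.

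Libraries were grouped by column name. After filterByExpr and TMM scaling, transgenic and wild-type libraries were compared with edgeR 4.0.16 (glmQLFit and glmQLFTest, R 4.3.3) without covariates, and p-values were adjusted by Benjamini and Hochberg's method over the 13338 genes tested. The standard error is the fold change over the square root of its F value. Log2 CPM used a prior count of 2. Lengths and coordinates came from GENCODE M21 on GRCm38 and promoters from RefSeq on GRCm38.p6. The steps were tested on simulated data.

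The 8 genes and all lists were chosen with earlier results of these data known. The text names Zfp407, the 8 genes, and up to 5 called members of each related list or the 2 with the smallest p. It names the 3 most abundant per length in the peroxisomal lists, Alb, 3 other hepatocyte markers and 1 gene of each other marker list. The 5 profiles most like Ehhadh and Acaa1b, searched outside the 8 genes, are also named. Acadm, Hadha, Vtn and Hp were named after their values were seen. Some genes that these rules would name are not reported here. Rows that resemble ribosomal RNA (Lars2, Gm15564, Gm15662) took 14.3% to 33.9% of the counts in wild type and 9.62% to 17.3% in transgenic libraries. The TMM factors also differed by group, from 0.814 to 1.01 in wild type and from 1.02 to 1.16 in transgenic libraries. Without these rows 2 of the 8 genes were called higher and 0 lower. Every 2 libraries of a group differed beyond sampling noise (chi-square per degree of freedom at least 15.9). Results were recomputed with DESeq2 1.42.0 or its size factors, with other filters, with libraries left out and with a hepatocyte covariate. Added after the data were seen were DESeq2 without its outlier filter and the counts for the other lists.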

Additional observations from a re-analysis of the deposited data

Results flagged for a closer look

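In 33 of the 98 groups of 5 libraries, over 49 named genes, 1 library lay apart from the other 4 by Dixon's criterion, where chance gives about 1 in 20. Of these libraries, 24 were transgenic library 5. Among the 8 peroxisomal oxidation genes they were Ehhadh at 68.4 CPM and Acaa1b at 10.8 CPM in transgenic library 5, Ehhadh at 10.3 CPM in wild-type library 2 and Acaa1a at 14.7 CPM in wild-type library 4. The other 5 of the 8 genes had no such library in either group.

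Of the related peroxisomal genes, Slc27a2 at 102 CPM, Acot12 at 8.81 CPM, Acox2 at 8.94 CPM, Decr2 at 12.5 CPM, Phyh at 174 CPM and Uox at 35.0 CPM stood apart in transgenic library 5. Crat at 380.0 CPM, Fis1 at 56.1 CPM and Prdx5 at 58.7 CPM, together with the muscle gene Ckm at 13647 CPM, did so in transgenic library 3, and Fis1 was low at 31.2 CPM in wild-type library 4. Of the PPAR alpha targets, Cyp4a10 at 92.9 CPM, Cyp4a14 at 199 CPM, Fabp1 at 32.7 CPM and Cyp8b1 at 16.9 CPM stood apart in transgenic library 5.

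The hepatocyte genes Alb at 3038 CPM, Apob at 1266 CPM and Cps1 at 474 CPM stood apart in the same library. So did the genes with profiles like those of Ehhadh or Acaa1b, chosen for that likeness: C6 at 6.31 CPM, Dpyd at 43.9 CPM, H2-Q10 at 22.3 CPM, Fmo5 at 38.4 CPM, Cyp2f2 at 23.9 CPM, Apoc2 at 4.12 CPM, Fgl1 at 10.9 CPM, Rbp4 at 73.4 CPM and Cth at 26.3 CPM. Cth was also low at 1.72 CPM in wild-type library 3, and Myh7, the slow myosin, was high at 428 CPM in wild-type library 1.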

How the results depend on the processing

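No paired analysis was possible because the labels give the groups no shared replicate numbers and the column numbers do not name mice. Of the 8 genes, 2 were called higher, and this became 1 with DESeq2, with a filter of 1 CPM in 5 libraries (which removed Acaa1b) and without transgenic libraries 4 and 5, 0 with the hepatocyte covariate, and 0 to 2 with 1 library left out (0 where wild-type library 1, 3, 4 or 5 was left out, and 1 for wild-type library 2 and transgenic library 4). It stayed at 2 by the authors' deposited adjusted p and with DESeq2 without its outlier filter. None was called lower in any fit. Over all genes, 571 were called higher, against 899 with DESeq2, 900 with DESeq2 without its outlier filter, 876 by the authors' deposited adjusted p, 75 with the covariate and 342 (without wild-type library 3) to 764 with 1 library left out. Called lower were 140, against 331, 332, 282 and 7 in the same order, 56 without transgenic libraries 4 and 5, and 92 (without wild-type library 5 or transgenic library 4) to 352 (without transgenic library 3) with 1 library left out.

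Apart from the fit with the covariate, signs turned mostly for values near 0. With the covariate they also turned for genes with large rises. Without it these stood at 2.71 for Acaa1b, 3.70 for Cyp4a14, 2.27 for H2-Q10, 1.82 for Cth, 1.78 for Cyp2f2 and 1.28 for Fmo5. With the covariate the log2 fold changes became -0.27 for Acaa1b, -0.13 for Hsd17b4, -0.43 for Abcd3, -0.050 for Cat, -0.51 for Phyh, -0.43 for Scp2, 0.027 for Pex19, -0.34 for Dnm1l, 0.14 for Prdx5, -0.066 for Cyp4a14, 0.94 for Adipoq, 0.32 for Ckm, -0.11 for H2-Q10, -0.29 for Fmo5, -0.55 for Cyp2f2 and -0.51 for Cth. Without transgenic libraries 4 and 5 they were -0.015 for Hsd17b4, -0.12 for Abcd3, -0.060 for Phyh, 0.022 for Pex19, -0.12 for Dnm1l, 0.035 for Prdx5, 0.13 for Adipoq and 0.10 for Ckm. Without transgenic libraries 1 and 2 they were 0.055 for Pex19, -0.0060 for Dnm1l and 0.11 for Ckm, and without the rows that resemble ribosomal RNA Hsd17b4 was at -0.0039. With 1 library left out, signs turned for Hsd17b4 (-0.061 to 0.078), Ech1 (-0.13 to 0.13), Abcd3 (-0.047 to 0.20), Phyh (-0.049 to 0.26), Crat (-0.13 to 0.10), Pex19 (-0.14 to 0.028), Dnm1l (-0.054 to 0.16), Adipoq (-0.77 to 0.35), Myh7 (-1.23 to 1.12) and Ckm (-0.26 to 0.045). The cause was not tested. Of the 8 genes, Acaa1b had the fewest counts, 3 to 9 per wild-type library.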
